A study of Mus musculus with 12 samples.

Results

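The hippocampal response to pilocarpine was examined in Srf mutant mice whose seizures stopped short of status epilepticus (SE), a seizure state that does not end by itself. Members were the 6 arrays titled as mutants with or without pilocarpine, of 12 arrays in all, and every probe set with 1 gene symbol, keeping for each of 19938 genes the probe set with the highest mean level. Every mouse had a C57/Bl6 background, was an adult of 7 to 10 weeks, carried a tamoxifen-inducible Cre recombinase driven by the Camk2a promoter, and had received tamoxifen about 2 weeks earlier. The promoter is active in glutamatergic neurons of the forebrain, so interneurons, glia and vessels of the mutants kept Srf. The 3 mutant pilocarpine mice carried 2 floxed Srf alleles, were given methyl scopolamine and then pilocarpine at 335 or 350 mg/kg, and had seizures without SE, described both as grade 4 and as stage 4 to 5. The 3 mutant control mice had the same genotype and received Ringer solution. For comparison, 3 heterozygous mice were given methyl scopolamine and pilocarpine at 335 or 350 mg/kg and spent 40 min in SE. Another 3 heterozygous mice received Ringer solution. Heterozygous mice kept 1 intact Srf allele but are titled WT and given the genotype Control in the labels. A diazepam dose of 4 mg/kg is also in the labels. In the paper, mice with SE were either killed after 40 min of it or given diazepam. The time at which the mutants without SE were killed is not given in the sources used here. Genotype, SE and time therefore cannot be told apart when mutants are set against heterozygous mice, and the sexes were not balanced either.

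Serum response factor (SRF) is a transcription factor that binds the CArG box and drives immediate early genes, which neurons transcribe within minutes of strong activity, as well as genes of the actin cytoskeleton. CREB, which binds the cyclic AMP response element (CRE), is another activity-regulated factor, and many immediate early genes carry sites for both. Pilocarpine is an agonist of muscarinic acetylcholine receptors, and the hippocampus is one of the regions most strongly engaged by the seizures it causes.

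Each array measured RNA of the whole hippocampus of 1 mouse, and values are log2 levels after robust multi-array averaging (RMA). Array medians lay between 6.78 and 6.86, and any pair of mutant arrays correlated at 0.996 to 0.998 across probe sets. Srf was at 8.80, 8.94 and 8.96 in mutant controls and at 8.90, 8.90 and 8.83 in mutants given pilocarpine, below the 9.53 to 9.60 of heterozygous controls. Its level did not pass the test between the mutant groups (log2 fold change -0.03 ± 0.05, adjusted p = 0.88; values after ± are standard errors of the estimate). Xist is transcribed from the inactive X of females. It was above 10 on 2 of the 3 mutant control arrays and on 1 of the 3 mutant pilocarpine arrays. Xist was at 5.12, 5.08 and 9.92 in heterozygous controls and at 5.02, 5.18 and 5.05 in heterozygous SE. The sexes were therefore not balanced within or between the genotypes. Markers of the hippocampal fields were present on every mutant array, with mean levels of 9.65 to 10.1 for 5 dentate granule neuron genes and 9.40 to 9.77 for 4 CA3 genes, and none of these markers passed the test (limma; at unadjusted p under 0.05, 0 of the dentate and 1 of the CA3 genes were higher). Of 110 markers in 18 lists of neurons, glia, vessels and neighbouring tissue, 1 passed, Sostdc1, a choroid plexus gene that was higher (0.40 ± 0.09). Its call was lost in the fit of the mutant arrays alone and in 8 of 12 fits that left out 1 mouse. At unadjusted p under 0.05 (limma), 13 of the 110 were higher and 11 lower, against 1198 and 1913 of 19938 genes. Mean levels of 9 meninges markers varied between mice, at 8.73, 7.82 and 8.70 in mutant controls and 8.44, 9.02 and 8.22 after pilocarpine.

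The sequences below show regulatory letters in the promoters of genes that rose. Each is a stretch of 100 bases from the 250 bases before a RefSeq start site in GRCm38.p6, placed to hold the letters and so ending at a different distance from the start in each gene, and written 5′ to 3′ on the strand of the gene. Capitals mark TGACG or its reverse complement CGTCA, the core of the CRE, the full palindromic CRE where both overlap, and in Egr2 a CArG box. Egr2 has 5 promoters in the table, and the 1 shown was picked by a rule that put promoters with a CArG box first. Fos and Npas4 had the largest rises, Dio2 had a rise with no called difference from heterozygous SE, Dusp1 is a feedback gene with a full CRE, and Btg2 and Egr2 rose far less in mutants.
Fos, chr12:85473740-85473839, plus strand: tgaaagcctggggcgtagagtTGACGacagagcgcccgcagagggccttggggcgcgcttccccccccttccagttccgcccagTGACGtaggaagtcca
Npas4, chr19:4990062-4990161, minus strand: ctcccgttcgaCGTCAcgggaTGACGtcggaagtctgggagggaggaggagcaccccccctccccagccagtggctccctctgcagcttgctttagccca
Dio2, chr12:90739079-90739178, minus strand: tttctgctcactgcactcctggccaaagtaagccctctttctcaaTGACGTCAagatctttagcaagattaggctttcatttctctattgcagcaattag
Dusp1, chr17:26508553-26508652, minus strand: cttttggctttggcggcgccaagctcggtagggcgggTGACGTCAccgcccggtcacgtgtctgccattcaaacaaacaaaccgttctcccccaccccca
Btg2, chr1:134079256-134079355, minus strand: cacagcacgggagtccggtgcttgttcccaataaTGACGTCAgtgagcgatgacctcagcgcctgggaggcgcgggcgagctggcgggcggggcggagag
Egr2, chr10:67537744-67537843, plus strand: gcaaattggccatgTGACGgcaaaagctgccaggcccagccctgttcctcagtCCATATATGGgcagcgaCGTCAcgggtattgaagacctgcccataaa

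In the mutants, pilocarpine was followed by higher levels of 195 genes and lower levels of 211 (limma, adjusted p under 0.05 over all probe sets with a gene). These are 0.978% and 1.06% of the genes tested. With the arrays centred again on their medians the split was 220 higher and 151 lower, and after a further quantile normalization it was 223 and 167. On all 195 and all 211 genes the 3 pilocarpine arrays lay outside the range of the 3 controls, as they did above controls for 7.48% and below them for 11.7% of all genes. Rises were larger than falls. Of the rises, 63 reached 1.5-fold, 18 reached 2-fold and 4 reached 4-fold, whereas 2 falls, Opalin and Rbm3, reached 1.5-fold and none reached 2-fold. In the fit of the 6 mutant arrays alone, 114 genes were higher and 36 lower. Leaving out pilocarpine mouse 2 gave 103 higher and 49 lower genes, and leaving out pilocarpine mouse 1 gave 105 and 56. Without mutant control mouse 1 the counts were 129 and 133, and without mutant control mouse 2 they were 117 and 62. Without pilocarpine mouse 3 there were 137 falls, and without heterozygous control mouse 2 there were 139.

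The largest rise was that of Npas4, a transcription factor induced by calcium entry in neurons. Its level was 7.88, 7.63 and 7.59 in mutant controls and 11.44, 11.38 and 11.18 in mutants given pilocarpine. The groups were far apart, and the difference was 3.64 ± 0.12 on the log2 scale, a 12.4-fold rise (adjusted p = 1.9e-08). Fos, a subunit of the AP-1 factor, was at 6.79, 6.96 and 7.36 in controls and at 9.73, 9.95 and 9.58 after pilocarpine. Its rise was 2.72 ± 0.12, or 6.57-fold (adjusted p = 3.9e-07), and its relative Fosb rose by 2.53 ± 0.15. Ccn1, a secreted matrix protein and known SRF target, was at 7.80, 7.64 and 7.73 in controls and rose to 9.54, 9.82 and 10.00, with no overlap. These 4 genes passed 4-fold.

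**Figure D1:**
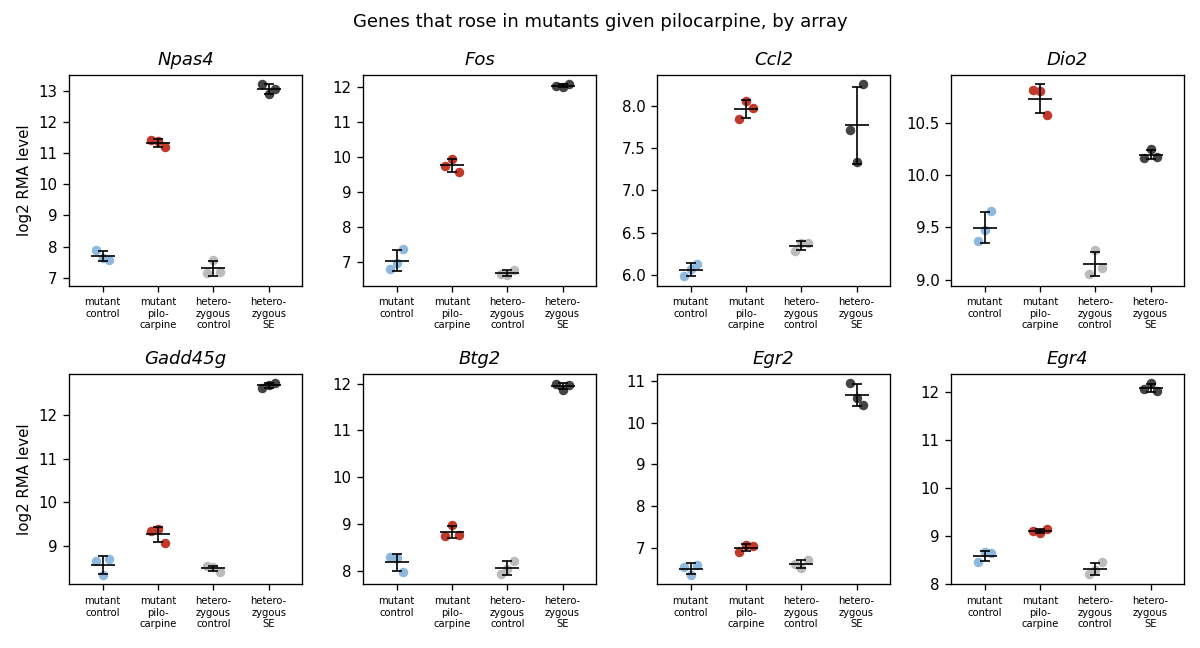
Log2 RMA level (y axis) of 8 genes in each of the 12 mice by group (x axis); points are arrays, and bars give the mean and SD of 3 mice. Npas4 and Fos in mutants given pilocarpine sit between mutant controls and heterozygous SE, Ccl2 and Dio2 reach the heterozygous SE level or pass it, and Gadd45g, Btg2, Egr2 and Egr4 stay nearer to mutant controls than to heterozygous SE.

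Among early transcription factors, 19 of 30 measured genes rose and none fell, with a median log2 fold change of 0.48 against -0.0017 over all genes. Junb rose by 1.24 ± 0.08, Nr4a1, an orphan nuclear receptor, by 1.25 ± 0.11, and Nfil3, a repressor of the clock output pathway, by 0.95 ± 0.12. Egr1, named after its values were seen, was at 9.56, 9.75 and 9.75 in controls and at 10.36, 10.37 and 10.39 after pilocarpine, a rise of 0.69 ± 0.06. Of the other listed early genes, called early effectors here, 22 of 28 rose and none fell, with a median of 0.62. Arc, a synaptic protein that removes AMPA receptors, was at 9.57, 9.71 and 10.12 in controls and rose to 11.36, 11.34 and 11.51. The rise of Arc was 1.61 ± 0.13 (adjusted p = 7.3e-05), and that of Gadd45b, a stress-response gene linked to DNA demethylation, was 1.40 ± 0.07. Gem, a small GTPase that inhibits calcium channels, rose by 1.44 ± 0.14.

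Feedback genes of the MAP kinase pathway rose as well. Of 11 MAP kinase phosphatases 4 rose, namely Dusp1 by 1.35 ± 0.11, Dusp6 by 1.11 ± 0.10, Dusp4 by 0.73 ± 0.12 and Dusp5 by 0.67 ± 0.08. Of 8 Ras feedback inhibitors 4 rose: Errfi1, which inhibits the EGF receptor, by 0.69 ± 0.08, Spry4 by 0.63 ± 0.12, Spred1 by 0.26 ± 0.06 and Spred2 by 0.22 ± 0.05. The calls of Spred1, Spred2 and Spry4 were lost in the fit of the mutant arrays alone. They were also lost in 11, 10 and 3 of the 12 fits that left out 1 mouse. Of 17 delayed activity genes 6 rose, with a median of 0.27. Nptx2, a pentraxin that clusters AMPA receptors, was at 9.27, 9.61 and 9.55 in controls and at 10.71, 10.41 and 10.49 after pilocarpine (difference 1.06 ± 0.11, adjusted p = 0.00031). Inhba, which encodes an activin subunit, rose by 1.24 ± 0.23 and Pcsk1, a prohormone convertase, by 0.84 ± 0.18, but both lost their call without pilocarpine mouse 1 or mouse 2.

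The 2 groups of SRF targets gave different counts. Of 14 targets of the early response 11 rose, with a median of 0.67, while of 21 targets of the actin cytoskeleton none passed the test in either direction, with a median of 0.014 (limma; 3 were higher and 1 lower at unadjusted p under 0.05). Over all genes 0.978% were called higher and 1.06% lower, so no call among 21 genes is near these shares. In heterozygous SE the medians were 3.38 and 0.15. There 14 of 14 early targets and 5 of 21 actin targets were higher, against 4.98% of all genes. Of 16 CREB targets 11 rose in the mutants, with a median of 0.65, against 1.75 in heterozygous SE. Some genes stand in more than 1 of these lists.

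Signals to other cells were also among the rises. Ccl2, a chemokine that attracts monocytes, was at 5.98, 6.07 and 6.13 in mutant controls and at 7.85, 8.07 and 7.99 after pilocarpine. Its groups were well separated, with a rise of 1.91 ± 0.16 (adjusted p = 7.9e-05). Ccl7, a neighbouring chemokine gene, was at 6.51, 6.67 and 6.75 in controls and at 7.75, 8.13 and 8.04 after pilocarpine, a rise of 1.33 ± 0.13. Socs3, an inhibitor of cytokine signalling, rose by 0.68 ± 0.09 and Icam1, an adhesion molecule, by 0.45 ± 0.10. The call of Icam1 was lost in the fit of the mutant arrays alone and in 9 of 12 fits that left out 1 mouse. Of 19 cytokine and chemokine genes these 4 rose and none fell. Of 14 interferon response genes none rose and 2 fell, Usp18 by 0.44 and Ifit1 by 0.44 on the log2 scale. Both calls were lost in the fit of the mutant arrays alone, and in 10 and 9 of 12 fits that left out 1 mouse. Thbs1, a matrix protein that astrocytes secrete, rose by 1.36 ± 0.15. Dio2, which converts thyroxine to active thyroid hormone and in brain is mainly expressed by astrocytes and related glia, was at 9.37, 9.47 and 9.65 in controls and at 10.81, 10.80 and 10.57 after pilocarpine, a rise of 1.23 ± 0.08 (adjusted p = 1.1e-05).

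Of 302 microRNA genes measured, 2 rose (0.662%) and none fell, against 0.978% and 1.06% of all genes. Mir132 was at 6.11, 6.36 and 6.34 in controls and at 7.11, 7.11 and 7.12 after pilocarpine, a rise of 0.84 ± 0.13. Mir212 was at 8.42, 8.51 and 8.65 in controls and at 9.01, 9.02 and 9.15 after pilocarpine, a rise of 0.54 ± 0.06. They lie close together on chromosome 11, their precursors come from 1 transcript that CREB is known to induce, and the probe sets read the precursor region and not the mature RNA. The mature 3p sequences from RefSeq are shown because they share their seed, bases 2 to 8, in capitals.
mmu-miR-132-3p: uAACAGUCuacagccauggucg
mmu-miR-212-3p: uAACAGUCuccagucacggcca

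**Figure D2:**
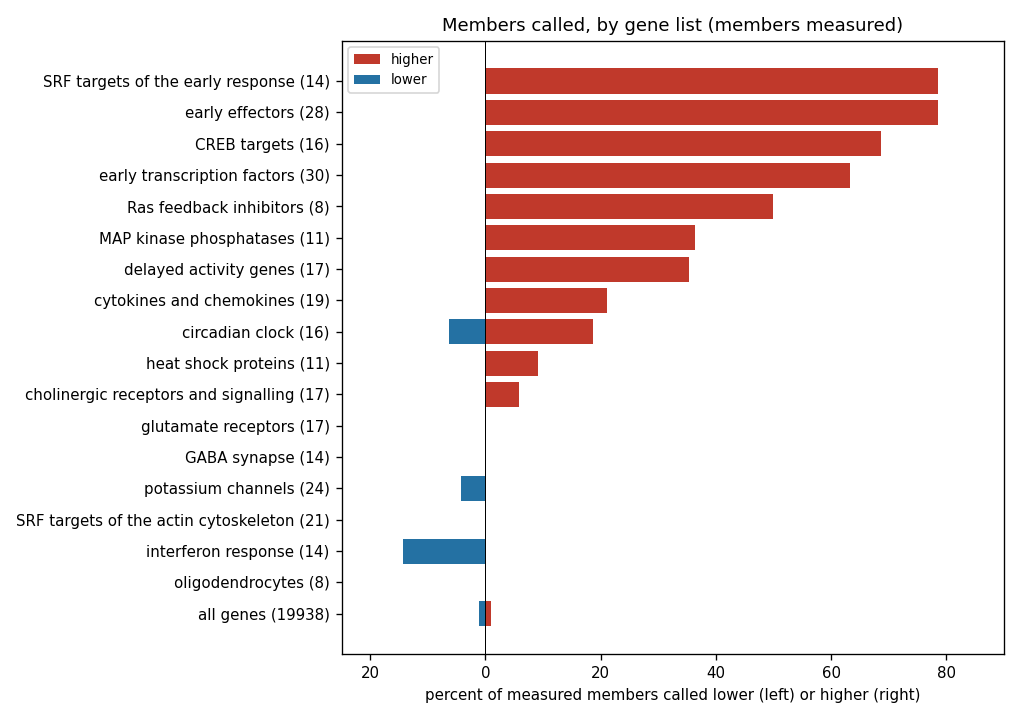
Percent of measured members of each gene list (y axis, number measured in parentheses) called higher (bars to the right) or lower (bars to the left) in mutants given pilocarpine against mutant controls. Early SRF targets and early effectors reach 78.6% higher, while no glutamate receptor, GABA synapse or actin cytoskeleton gene was called. Over all genes 0.978% were called higher and 1.06% lower.

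Few receptor and channel genes passed the test, as did few of all genes (2.04% in either direction). None of 17 glutamate receptor genes did (limma; 2 were higher at unadjusted p under 0.05), and none of 14 genes of the GABA synapse did (1 higher and 4 lower at unadjusted p under 0.05). Of 17 cholinergic genes Chrm5, a muscarinic receptor, was higher (8.16, 7.95 and 8.06 in controls against 8.53, 8.70 and 8.35), a call lost in the fit of the mutant arrays alone. Of 24 potassium channel genes Kcnj3, a G protein-gated channel subunit, was lower by a log2 fold change of -0.18 ± 0.04, a call lost in the same fit. Leaving out 1 mouse at a time, the call of Chrm5 was lost in 4 of 12 fits and that of Kcnj3 in 9. Of the lists that report stress, 1 gene each rose among 11 heat shock proteins (Hsph1, 0.36 ± 0.06), 12 hypoxia genes (Pfkfb3, 0.32 ± 0.06), 13 unfolded protein genes (Atf4, 0.17 ± 0.04) and 17 glucocorticoid-regulated genes (Per1, 0.67 ± 0.06). In lists this short, 1 gene is already 5.88% to 9.09% of the members, against 0.978% of all genes that rose. The calls of Hsph1, Pfkfb3 and Atf4 were lost in the fit of the mutant arrays alone. With 1 mouse left out at a time, that of Hsph1 always held, that of Pfkfb3 was lost in 4 of 12 fits and that of Atf4 in all 12. None of 9 p53 targets passed the test (limma; 2 were lower at unadjusted p under 0.05).

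The falls were small and their leading genes were of mixed function. Opalin, a membrane protein of myelinating oligodendrocytes, had the largest fall, from 8.82, 8.92 and 8.72 in controls to 7.61, 7.93 and 8.39 after pilocarpine. The groups did not overlap, but the pilocarpine mice differed among themselves (log2 fold change -0.84 ± 0.17, adjusted p = 0.025). The call was lost in the fit of the mutant arrays alone and in 4 of 12 fits that left out 1 mouse. The mean of 8 oligodendrocyte markers was 11.06, 11.03 and 11.05 in controls. Against the mean of the controls it differed by -0.50, -0.17 and -0.044 in pilocarpine mice 1, 2 and 3, the order of the Opalin values. The mean of 8 endothelial markers moved in the same order, by -0.28, -0.14 and -0.014, with a median log2 fold change of -0.13, and none of these passed the test either (limma; 1 was lower at unadjusted p under 0.05). All 8 oligodendrocyte markers had negative log2 fold changes, with a median of -0.26, and none passed the test. Below every control array lay 3 of 8, against 11.7% of all genes. At unadjusted p under 0.05 (limma) 6 of 8 were lower, against 1913 of 19938 genes. The part of oligodendrocyte or endothelial RNA in the fall of Opalin was not tested, and fewer oligodendrocytes and less RNA per cell cannot be told apart in whole tissue.

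Rbm3 and Cirbp, RNA-binding proteins known to be induced by cold, were both lower. Rbm3 was at 12.15, 12.31 and 11.86 in controls and at 11.44, 11.40 and 11.70 after pilocarpine, a log2 fold change of -0.60 ± 0.10. Cirbp was at 10.20, 10.47 and 9.93 in controls and at 9.59, 9.56 and 9.79 after pilocarpine, a change of -0.56 ± 0.12. Mutant control mouse 3 was the lowest control and pilocarpine mouse 3 the highest treated mouse for both genes. Both calls were lost in the fit of the mutant arrays alone. Of the 12 fits that left out 1 mouse, the call of Rbm3 was lost in 2 and that of Cirbp in 7. Body temperature of the mice is not given in the sources used here.

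Dbp, a clock output factor, was at 10.42, 10.46 and 10.32 in controls and at 9.96, 9.72 and 9.95 after pilocarpine (log2 fold change -0.53 ± 0.07, adjusted p = 0.0022). Of 16 circadian genes it was the 1 that fell, while Per1, Nfil3 and Bhlhe40 rose. C1qtnf12, a secreted C1q-related protein, fell from 8.80, 9.02 and 8.92 to 8.34, 8.29 and 8.47, and Sytl2, a Rab27 effector in vesicle traffic, from 8.25, 8.29 and 8.27 to 7.66, 7.67 and 7.88. Gm13375 fell by 0.52 ± 0.05 and C530005A16Rik by 0.49 ± 0.07 on the log2 scale. Gpr12, a constitutively active receptor, Slc14a1, a urea transporter, and Rgs11, a regulator of G protein signalling, were lower by log2 fold changes of -0.58, -0.55 and -0.58. All 3 lost their call in the fit of the mutant arrays alone, and in 3, 9 and 10 of 12 fits that left out 1 mouse. Dbp, C1qtnf12, Sytl2, Gm13375 and C530005A16Rik kept theirs under every alternative in which they were tested. Parp12 and Tlr3, genes of antiviral defence named here after their values were seen, were lower by log2 fold changes of -0.35 ± 0.05 and -0.40 ± 0.06 and also kept their calls.

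**Figure D3:**
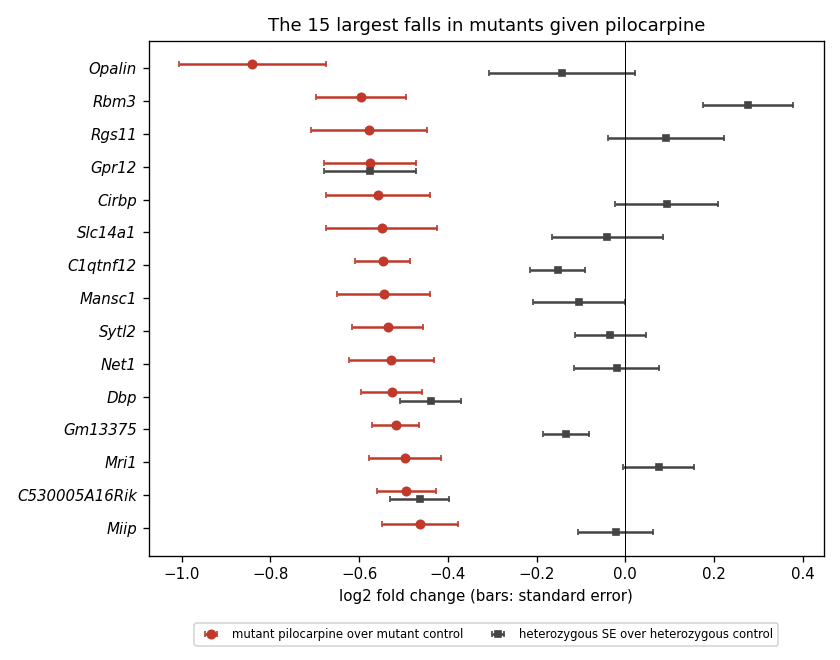
Log2 fold change with its standard error (x axis) of the 15 genes with the largest falls (y axis) in mutants given pilocarpine (circles) and in heterozygous SE (squares). Gpr12, Dbp and C530005A16Rik have close values in both, and Rbm3 has a positive value of 0.28 in heterozygous SE.

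The mutant changes were then set against those of heterozygous SE, in which 993 genes (4.98%) were higher and 1496 (7.5%) lower. The comparisons share no arrays. Of the 195 rises in mutants, 142 (72.8%) were also higher in heterozygous SE, which is 14.3% of the heterozygous rises. Of the 211 falls, 58 (27.5%) were also lower, which is 3.88% of the heterozygous falls. The difference between the genotypes' changes was itself called for 734 genes, or 3.68% of those tested (318 or 1.59% more positive in mutants, 416 or 2.09% more negative). It was called for 126 of the 406 genes called in mutants, which are 2.04% of all genes.

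Of the 142 shared rises, 74 were smaller in mutants by that test, none was larger, and 68 had no called difference. The ratio of the mutant to the heterozygous log2 fold change had a median of 0.50 and ran from 0.126 to 2.15. It was under 0.5 for 71 genes and above 1 for 17. Genes had to be called in both comparisons to enter these ratios, which leaves out genes that changed little in mutants. Of 141 heterozygous rises of at least 2-fold, chosen by the heterozygous values alone, 74 were higher in mutants. A more negative change in mutants was called for 125 of the 141. The lowest ratios were those of Egr2, Egr4, Btg2, Gadd45g and Jun. Egr2 was at 6.90, 7.07 and 7.04 in mutants given pilocarpine and at 10.95, 10.61 and 10.44 in heterozygous SE, with rises of 0.51 and 4.05. Gadd45g, a growth arrest gene, rose by 0.70 in mutants and by 4.19 in heterozygous mice, and Btg2, an antiproliferative gene, by 0.65 and 3.88. Atf3, a stress-induced factor named after its values were seen, did not pass the test in mutants (0.46 ± 0.13, adjusted p = 0.11) and rose by 3.69 in heterozygous SE. Its mutant levels of 7.20, 7.17 and 7.32 after pilocarpine lay above the controls at 6.80, 6.80 and 6.70, and it passed in the fit of the mutant arrays alone (adjusted p = 0.016) and without heterozygous SE mouse 1 (0.0094) or mouse 2 (0.031). The mutant call of Egr2 was lost without any 1 of the 3 mutant controls.

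Other shared rises had no called difference. Ccl2 rose by 1.91 and 1.43, with a difference of 0.48 ± 0.23 (adjusted p = 0.34), and Ccl7 by 1.33 and 1.37, with a difference of -0.05 ± 0.19. Dio2 rose by 1.23 and 1.04, with a difference of 0.19 ± 0.12. The highest ratios were those of Etv3, an ETS-family repressor, Car12, a carbonic anhydrase, Siah3, Htra1, a secreted protease, and Hes1, a Notch target, whose rises in mutants were 0.37, 0.40, 0.48, 0.44 and 0.42. None of these differences was called, which does not show that the rises were equal.

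**Figure D4:**
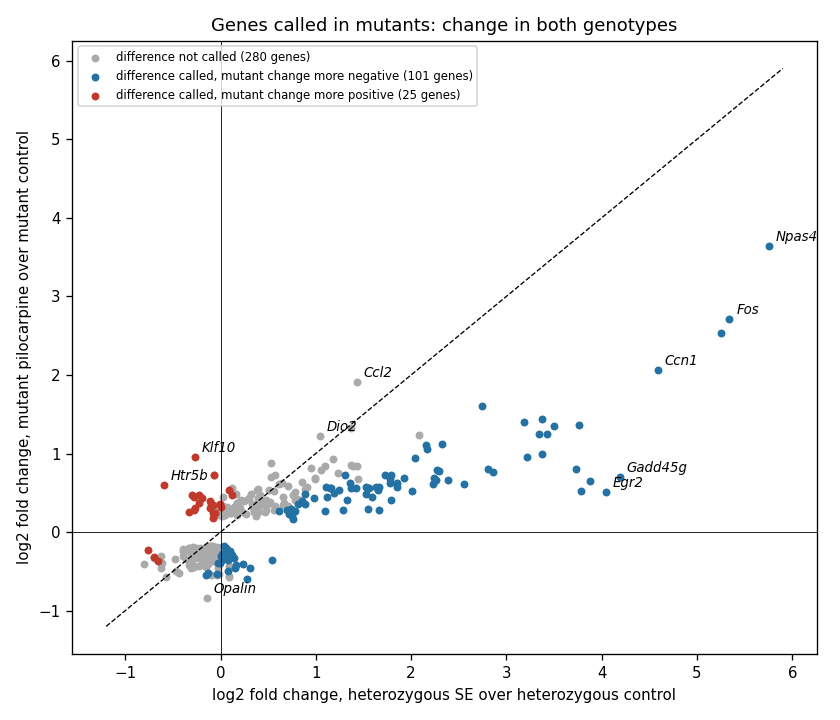
Log2 fold change in mutants given pilocarpine (y axis) against that in heterozygous SE (x axis) for the 406 genes called in mutants; the dashed line marks equal change, and colours mark the called difference. Shared rises lie mostly below the line, Ccl2 and Dio2 lie just above it, and Klf10 and Htr5b are higher in mutants with negative values in heterozygous SE.

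A larger change in mutants, or one in the other direction, was called for 49 genes, 22 higher and 27 lower. Klf10, a Krüppel-like factor induced by TGF-beta, had the largest such difference. It was at 8.61, 8.74 and 8.61 in mutant controls and at 9.61, 9.63 and 9.60 after pilocarpine, a rise of 0.96 ± 0.10. In heterozygous mice Klf10 was at 8.48, 8.55 and 8.75 in controls and at 8.51, 8.06 and 8.43 in SE, and the difference of the changes was 1.22 ± 0.14 (adjusted p = 0.00037). Trib2, a pseudokinase, was at 9.32, 9.48 and 9.67 in mutant controls and at 10.24, 10.22 and 10.18 after pilocarpine, against a change of -0.07 in heterozygous SE. Pmepa1, an inhibitor of TGF-beta signalling, Skil, a corepressor of SMAD factors, and Nab2, a corepressor of EGR factors, all named after their values were seen, rose by 0.53, 0.47 and 0.32 in mutants and by 0.09, 0.12 and 0.01 in heterozygous SE. Chrm5, Arsj, Slc27a3 and Tekt4 were also higher in mutants and did not pass the test in heterozygous SE, and Rbm3, Galns, Mri1 and Alkbh3 were lower. The mutant calls of Klf10, Trib2, Pmepa1, Skil and Nab2 held under every alternative in which they were tested, and those of the other 8 genes did not.

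For 8 genes, all named after their values were seen, the calls went in opposite directions in the 2 genotypes. Htr5b, a serotonin receptor, was at 8.67, 8.99 and 8.63 in mutant controls and at 9.33, 9.32 and 9.43 after pilocarpine, while in heterozygous mice it was at 8.68, 8.62 and 8.85 in controls and at 8.16, 8.19 and 8.05 in SE. The changes were 0.60 and -0.59, and their difference was 1.19 ± 0.13 (adjusted p = 0.00015). Slc44a5, Smox, Fam13b and Tmem38b were likewise higher in mutants and lower in heterozygous SE. Arrdc3, an arrestin-domain protein, was at 10.14, 9.95 and 10.06 in mutant controls and at 9.49, 9.61 and 9.70 after pilocarpine, and it rose by 0.31 in heterozygous SE. Rbmx, an RNA-binding protein, and Armcx5 were lower in mutants and higher in heterozygous SE as well. Among the 8, Htr5b and Arrdc3 kept their mutant call under every alternative in which they were tested.

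**Figure D5:**
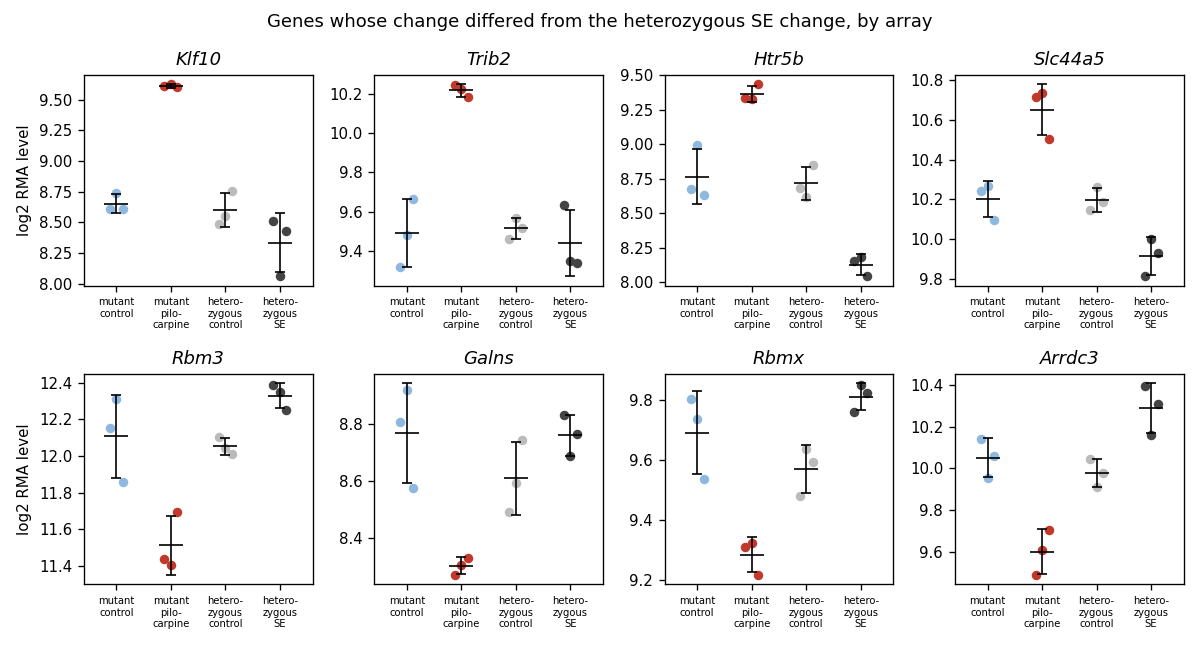
Log2 RMA level (y axis) of 8 genes in each of the 12 mice by group (x axis); points are arrays, and bars give the mean and SD of 3 mice. The mutant pilocarpine arrays lie above all other arrays for Klf10, Trib2, Htr5b and Slc44a5, and below all others for Rbm3, Galns, Rbmx and Arrdc3.

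Zinc finger genes, which encode DNA-binding proteins, were counted by their numbered Zfp symbols. Of 317 measured, 2 rose (0.631%) and 3 fell (0.946%) in mutants, near the 0.978% and 1.06% over all genes. At unadjusted p under 0.05 (limma), 11 of the 317 were higher and 46 lower, against 1198 and 1913 of 19938 genes. In heterozygous SE 11 of the 317 rose and 125 fell, where 4.98% and 7.5% of all genes did. The difference of the changes was called in the direction of a higher value in mutants for 49 of them, and in the other direction for 6. Over all genes these shares were 1.59% and 2.09%. In mutants Zfp948 and Zfp516 rose, and Zfp239 and Zfp46 were among those that fell. The calls of Zfp239 and Zfp46 were lost in the fit of the mutant arrays alone, that of Zfp516 with every probe set tested, and that of Zfp948 without pilocarpine mouse 2. Those of Zfp46, Zfp516 and Zfp239 were also lost in 11, 5 and 3 of 12 fits that left out 1 mouse.

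Promoters, here windows from 250 bases before to 50 bases after a start site and so longer than the stretches shown, were available for 141 of the 195 genes that rose. TGACG or CGTCA occurred in 56% of these, in 33.1% of 172 promoters of genes that fell, and in 28% of the 15614 measured genes with a promoter. A gene counted as holding the letters if any of its promoters did, and 20.8% of all 32851 promoters in the table held them. The share was 66.7% among rises that were smaller in mutants, 56.5% among shared rises with no called difference and 41.7% among rises not called in heterozygous SE. The rearranged letters AGTCG or CGACT occurred in 28.4% of promoters of genes that rose and in 23.4% of all measured. Promoters of genes that rose had a median GC content of 64.3%, against 57.5% over all. A full CRE, TGACGTCA, which also holds the shorter letters, occurred in 6.38% against 2.72%, and a CArG box in 1.42% against 1.63%. The letters describe these windows only and do not show that a factor was bound.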

How the data were processed

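The deposited values are log2 levels that the authors made with Affymetrix Expression Console and RMA from Mouse Gene 1.0 ST arrays, 1 per mouse; values are relative within a probe set and carry no read depth, so 3 mice per group limit the precision. Probe sets were named from the platform annotation: of 35556, 21789 had 1 gene, 1621 several and 12146 none. Group means were fitted to all 12 arrays with limma 3.58.1 in R 4.3.3, and p-values were adjusted by Benjamini-Hochberg over 23410 probe sets with a gene. The difference of the changes was a contrast in the same fit. The paper used littermates, but which of these mice shared a litter or cage is not given in the sources used here. The p-values rest on a spread between mice within groups that was pooled over all 12 arrays. The fit was tested on simulated data. The members and gene lists were chosen with earlier results of these data known. Named genes were the 15 largest rises and falls, the 10 largest differences toward the mutants among genes not called in heterozygous SE, the 5 highest and lowest ratios, and up to 4 called members of each list; others are marked. Alternatives changed the arrays fitted, the normalization, the probe sets kept and the covariates. Mutants that reached SE are not analysed here.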

Additional observations from a re-analysis of the deposited data

Results flagged for a closer look

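The named genes below differed between the genotypes by the test of the difference itself in limma. Each value is the mutant log2 fold change minus the heterozygous one. Among genes with a smaller rise in mutants or, for Srf and Atf3, no called rise, the largest differences in size were Egr2 -3.54, Gadd45g -3.48, Egr4 -3.26, Btg2 -3.23, Atf3 -3.23, Fosb -2.72, Fos -2.62, Ccn1 -2.53, Thbs1 -2.40 and Nfil3 -2.26. They were followed by Nr4a1 -2.18, Dusp1 -2.15, Npas4 -2.12, Junb -2.09, Gem -1.94, Gadd45b -1.79, Dusp5 -1.72, Egr1 -1.55, Jun -1.37 and Errfi1 -1.24. The smallest of this kind were Arc -1.14, Mir212 -1.12, Nptx2 -1.11, Per1 -1.11, Gpr3 -1.09, Dusp4 -1.06, Dusp6 -1.05, Zfp948 -0.81, Srf -0.66 and Atf4 -0.59. Genes with a more negative change in mutants were Armcx5 -0.90, Rbm3 -0.87, Arrdc3 -0.76, Rbmx -0.65, Galns -0.61, Alkbh3 -0.58, Mri1 -0.57, Sytl2 -0.50, Parp12 -0.43, C1qtnf12 -0.39, Gm13375 -0.38, Tlr3 -0.37 and Kcnj3 -0.22. Genes with a more positive change in mutants were Klf10 1.22, Htr5b 1.19, Trib2 0.80, Chrm5 0.77, Slc44a5 0.73, Arsj 0.69, Slc27a3 0.62, Tekt4 0.59, Tmem38b 0.59, Fam13b 0.58, Smox 0.57, Sostdc1 0.51, Pmepa1 0.44, Hsph1 0.37, Skil 0.36 and Nab2 0.31. Genotype, SE and time cannot be told apart in these differences, and the sexes were not balanced between the groups.

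Signals also appeared outside the gene comparison. Among the 12146 probe sets with no gene in the annotation, 5 were higher and 22 lower in mutants given pilocarpine at an adjusted p under 0.05 over all probe sets (limma). In the same fit 120 of 19938 genes were higher and 85 lower, which are larger shares. Among the 1621 probe sets that match several genes, 2 were higher and 4 lower, smaller shares than the 0.978% and 1.06% of genes. No gene is named from them.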

How the results depend on the processing

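The 195 higher and 211 lower genes, and the 126 with a called difference from heterozygous SE, moved with the processing, though none of the named genes called in mutants changed direction (the value of Srf, near 0 and not called, turned positive without mutant control mouse 3). With only the 6 mutant arrays in the fit there were 114 and 36, and with every probe set tested 120, 85 and 75. Leaving out dim probe sets gave 390 falls and 191 differences, and Xist level as a covariate gave 136 falls. Leaving out 1 mouse at a time gave 103 to 206 rises, 49 to 208 falls and 68 to 156 differences. Deviations of same-numbered mutants from their group means correlated at 0.146, -0.326 and 0.0639, and those of differently numbered mutants at -0.457 to 0.406. So few values cannot show whether the animal numbers pair the mice. With the replicate number as a block the counts were 167, 118 and 99. Of 93 named genes called in mutants 48 kept the call under every alternative in which they were tested, and over all genes 84 were higher and 20 lower under each alternative except the one that left out dim probe sets, which is not counted here. The cause of these shifts was not tested. Brightness of a probe limits what the arrays can show.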
